A study of Mus musculus with 30 samples.

Results

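Heat shock proteins and other molecular chaperones were followed in the extensor digitorum longus (EDL), a fast-twitch muscle of the lower leg, of mice with experimental autoimmune encephalomyelitis (EAE). The genes were taken by name from the 21073 genes of the expression table: symbols of the HSPA, HSPB, HSPD, HSPE, HSPH, HSP90, DNAJA, DNAJB and DNAJC series, CCT2 to CCT8, BAG1 to BAG6 and CRYAB. Of the 91 symbols that matched, 79 had a mean above 1 RPKM (reads per kilobase of exon, scaled to the mapped reads of the library) over the 30 mice and are the members described here. They were 7 small heat shock proteins, 11 HSP70, 3 HSP110 and 3 HSP90 genes, and 38 J-domain genes. With them were 7 subunits of the cytosolic chaperonin CCT, the mitochondrial chaperonin pair HSPD1 and HSPE1, and 6 BAG cochaperones. HSPB11, a subunit of intraflagellar transport, and HSPBP1, an exchange factor of HSP70, also match by name and are outside these families. The members nearest to the limit were HSPA12A (1.503 RPKM), BAG4 (1.66) and DNAJB14 (1.84) above it, and HSPBAP1 (0.845) and DNAJB13 (0.223) below it.

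The mice were female SJL/J animals in 6 groups of 5. On day 14, the peak of disease, and on day 40, during chronic remission, EDL muscle was taken from unimmunized mice (Ctrl), from mice given ovalbumin in complete Freund's adjuvant (OVA), and from mice in which EAE was induced with the myelin peptide PLP139-151 in the same adjuvant. OVA mice therefore share the adjuvant but not the disease, and each day had its own mice. The table gave the reads of whole muscle, so a fall in a cell type and a fall of RNA per cell cannot be told apart. As for depth, 1 RPKM in a transcript of 1 kilobase stood for an estimated 18.2 to 24.9 reads, and for an estimated 31.8 reads in EAE mouse 3 of day 14. These estimates rest on the size of single-read steps in lowly expressed genes, of which 50.6% to 56.8% came out whole within 0.02 of a read. The member with the fewest reads, DNAJC24, still had a mean of 115 reads per mouse.

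Chaperones keep proteins folded. HSP70 binds exposed stretches of unfolded chains and is driven through its ATP cycle by J-domain proteins, which stimulate hydrolysis, and by HSP110 and BAG proteins, which exchange the nucleotide. HSP90 finishes the folding of kinases and hormone receptors, CCT encloses actin and tubulin, and HSPD1 with HSPE1 does the same for proteins imported into mitochondria. Small heat shock proteins hold unfolding chains without ATP. Muscle is rich in them: CRYAB and HSPB1 protect desmin, titin and actin filaments, HSPB7 binds filamin C, and HSPB8 works with BAG3 and HSP70 to send damaged filamin to autophagy. Many of these genes are switched on by heat shock factors, which bind inverted repeats of GAA (heat shock elements), while chaperones of the endoplasmic reticulum (ER) are switched on through the ER stress element.

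Promoter sequence of members whose expression is described below was read from RefSeq (GRCm38.p6, the assembly called mm10) to show where such elements lie. The first 5 lines are the 250 bases before the transcription start of HSPB8, HSPA1B and DNAJB12, the members of their families with the largest changes, and of HSPB1 and HSPA5, which were added after their motifs were seen. The last 3 lines are 30 bases around a match before a start of HSPH1, CCT2 and HSPE1. HSPE1, which was not called, was added in the same way as HSPB1 and HSPA5. All are written 5′ to 3′ on the strand of the gene, and capitals mark a heat shock element (GAANNTTC or TTCNNGAA, single or overlapping) or, in HSPA5, the ER stress element.
HSPB8, chr5:116422865-116423114, minus strand: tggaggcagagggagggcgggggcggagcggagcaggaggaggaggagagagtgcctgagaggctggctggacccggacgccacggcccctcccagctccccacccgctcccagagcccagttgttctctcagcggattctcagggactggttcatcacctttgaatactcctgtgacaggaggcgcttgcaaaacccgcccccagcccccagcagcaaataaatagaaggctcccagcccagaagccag
HSPB1, chr5:135887669-135887918, plus strand: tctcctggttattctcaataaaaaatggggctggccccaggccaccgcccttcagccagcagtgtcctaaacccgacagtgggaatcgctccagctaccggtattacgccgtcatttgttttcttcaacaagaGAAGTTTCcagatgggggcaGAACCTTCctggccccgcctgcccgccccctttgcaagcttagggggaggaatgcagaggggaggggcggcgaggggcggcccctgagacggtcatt
HSPA1B, chr17:34959239-34959488, minus strand: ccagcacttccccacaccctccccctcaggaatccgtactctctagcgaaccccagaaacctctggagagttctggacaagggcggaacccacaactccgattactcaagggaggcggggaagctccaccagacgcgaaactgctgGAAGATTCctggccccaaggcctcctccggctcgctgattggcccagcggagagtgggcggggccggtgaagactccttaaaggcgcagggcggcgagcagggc
DNAJB12, chr10:59879333-59879582, plus strand: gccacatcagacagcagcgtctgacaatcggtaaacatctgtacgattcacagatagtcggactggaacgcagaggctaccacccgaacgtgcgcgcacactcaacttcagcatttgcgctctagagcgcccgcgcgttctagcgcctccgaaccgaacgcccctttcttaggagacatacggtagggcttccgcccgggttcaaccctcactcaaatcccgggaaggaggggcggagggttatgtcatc
HSPA5, chr2:34771840-34772089, plus strand: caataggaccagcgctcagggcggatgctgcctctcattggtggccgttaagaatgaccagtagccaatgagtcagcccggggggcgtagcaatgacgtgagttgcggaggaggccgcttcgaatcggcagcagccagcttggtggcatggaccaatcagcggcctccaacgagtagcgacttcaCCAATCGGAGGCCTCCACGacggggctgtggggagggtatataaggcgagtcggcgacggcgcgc
HSPH1, chr5:149636351-149636380, minus strand: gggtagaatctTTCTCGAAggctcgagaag
CCT2, chr10:117063399-117063428, minus strand: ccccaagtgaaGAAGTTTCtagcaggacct
HSPE1, chr1:55088053-55088082, plus strand: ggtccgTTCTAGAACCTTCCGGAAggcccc

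A heat shock element stood 104 bases before the start of HSPA1B and at the same distance before HSPA1A, its near-identical neighbour. HSPB1 had 2, at 117 and 97 bases before the start, HSPH1 had 1 at 54 bases and CCT2 had 1 at 42 bases before a start. The windows of HSPB8 and DNAJB12 held none before the start, and the match of HSPB8 lay 3 bases after it. The chaperonin pair HSPD1 and HSPE1 shares a promoter whose run of 3 overlapping elements lies 89 bases before the start of HSPE1. On windows of 300 bases (250 before and 50 after the start, both strands), 19 of the 63 members with a window held a heat shock element (30.2%), against 17% of 27025 genes. By family they were found in 4 of 5 small heat shock proteins, 3 of 6 CCT subunits, 2 of 8 HSP70 genes and 6 of 31 J-domain genes. Matches were in 9 of the 22 members with a window that were called higher in EAE on day 14 and in 9 of the 39 that were tested and not called. Among the small heat shock proteins, HSPB6, which was called lower, held a match in 1 of its 2 windows. HSPB7, which was called higher, held none. The longer heat shock element, with 3 GAA units in alternating orientation, was in HSPD1, HSPE1, HSPH1 and DNAJB6 and in 0.662% of genes, and the ER stress element (CCAAT and CCACG set 9 bases apart) in HSPA5, HSP90B1 and DNAJC3 and in 0.137% of genes. A match of letters is a description of sequence and not of binding. For 16 members, among them CRYAB, HSPB2, HSP90AB1 and HSPA8, no window was analysed here.

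On day 14, members of the small heat shock protein, HSP70, HSP110, HSP90, J-domain, CCT and BAG families were called higher in EAE muscle than in Ctrl muscle, and no member of the mitochondrial chaperonin was. The largest changes were in small heat shock proteins: HSPB8 was 3.98 times, HSPB7 3.60 times, HSPB1 2.71 times and CRYAB 2.35 times the Ctrl level, while HSPB6 fell to 0.665 times. Of 77 members that could be tested, 29 were called higher and 1 lower (limma adjusted p under 0.05 and a change over 1.5 fold), which is 37.7% and 1.30%. BAG4 and HSPA12A were too low to be tested. Among all 8771 genes tested, 14.6% were called higher and 11.8% lower. The median log2 fold change was 0.31 over the members and 0.11 over all genes. In 28 members every EAE mouse was above every Ctrl mouse and in 1 below, where 21.2% and 11.0% of all genes did the same. Members were tested if a compared group had a mean above 3 RPKM, and HSPA1A, HSPA1B, HSPA2, HSPA4L and DNAJB14 passed through 1 group only, which favours a difference. With a filter that ignores the groups, 28 members were called higher.

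**Figure D1:**
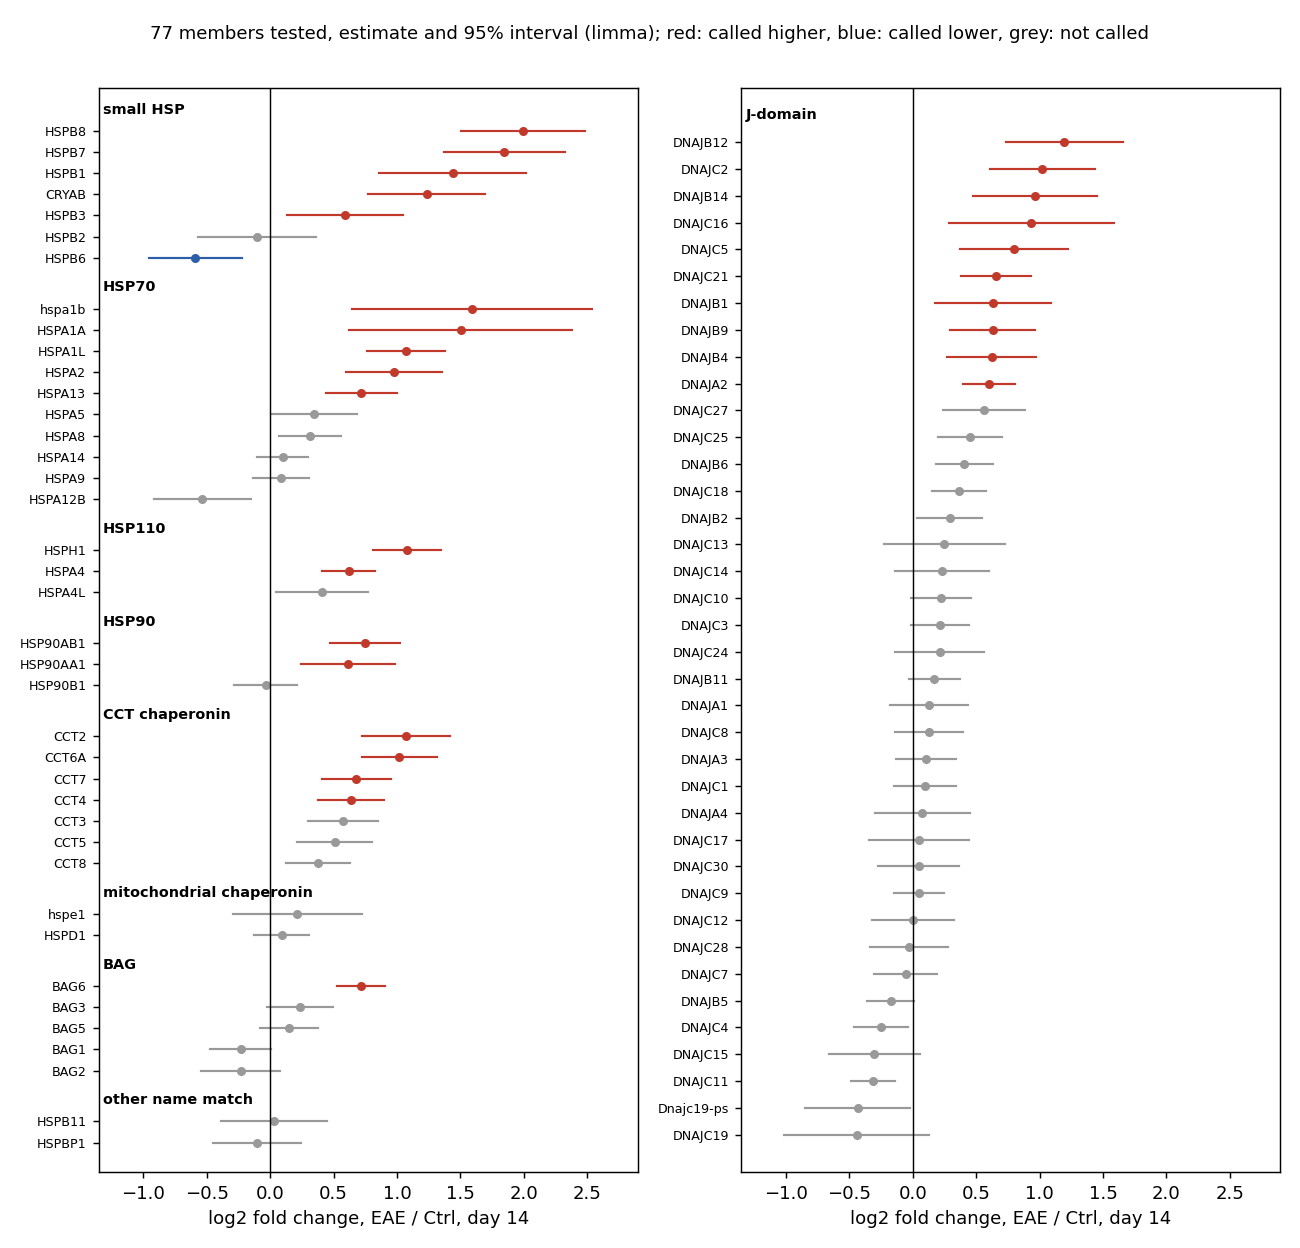
The log2 fold change of each of the 77 members tested, EAE against Ctrl on day 14, is plotted by family with its 95% interval from limma (n = 5 mice a group). Points to the right of 0 are higher in EAE; the 29 red members were called higher, HSPB6 (blue) was called lower, and the members of the mitochondrial chaperonin lie close to 0.

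The balance of the all-gene calls depended on the scaling. With median-of-ratios scaling, 11.3% of all genes were called higher and 14.2% lower, and with quantile normalization 11.25% and 12.95%. Members called higher were 19 under either scaling, and members called lower were 2 and 1. HSPB6 lost its call with quantile normalization (-0.30 on the log2 scale), so the 1 member called lower there was another. The median change of all genes went from 0.11 to 0.02 and 0.03. Among the calls lost were those of members with changes just over 1.5 fold, such as HSP90AA1 (0.53 on the log2 scale after median-of-ratios scaling), HSPA4 (0.53) and DNAJB1 (0.55).

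Against OVA mice of the same day, 18 members were called higher and 1 lower of 77 tested (23.4% and 1.30%), where 11.0% of 8674 genes were called higher and 9.28% lower. With median-of-ratios scaling 8.46% of all genes were higher and 11.5% lower, and the members stood at 14 higher and 2 lower. The median log2 fold change of the members was 0.26, against 0.11 over all genes, and the groups did not overlap for 22 members above and 1 below (18.0% and 8.20% of all genes). Both comparisons use the same 5 EAE mice, so they are given side by side and are not independent. In each of them 5 small heat shock proteins were called higher and 1 lower, and 4 CCT subunits were called higher, while J-domain genes gave 10 calls against Ctrl and 4 against OVA.

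The 5 EAE mice were not alike. Of the 29 members called higher against Ctrl, EAE mouse 1 was the highest of its group in 19 and EAE mouse 2 in the other 10, and EAE mouse 3 was the lowest in 20. Among Ctrl mice, mouse 1 was the lowest in 17. The count of 29 became 20 without EAE mouse 1, where the share of all genes called higher was 14.45% in place of 14.6%. It was 23 without EAE mouse 2 (12.25% of all genes), 32 without EAE mouse 3 (15.8%) and 24 without Ctrl mouse 1 (11.35%). In these 3 fits the all-gene share moved the same way as the count. Without EAE mouse 1 the share stayed nearly level while the count fell most.

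Small heat shock proteins were among the most abundant transcripts of the list, with a summed level of 2202 ± 368 RPKM in Ctrl mice of day 14 (mean ± SD, n = 5), 2206 ± 313 in OVA mice and 4490 ± 1287 in EAE mice. HSPB8 (chr5:116408491-116422864), the autophagy partner of BAG3, stood at 219, 194, 210.0, 271 and 206 RPKM in the 5 Ctrl mice. In OVA mice it stood at 147, 182, 188, 194 and 199, and in EAE mice at 1373, 1324, 519, 588 and 903. The lowest EAE mouse was thus above every Ctrl and OVA mouse. Its log2 fold change was 1.99 ± 0.23 (SE) against Ctrl (limma adjusted p = 1.06e-05) and 2.27 ± 0.23 against OVA (limma adjusted p = 4.99e-06). HSPB7 (chr4:141420779-141425310) rose from 190 ± 44.9 RPKM in Ctrl and 183 ± 36.7 in OVA mice to 926, 830.1, 368, 647 and 738 in the EAE mice, again without overlap. Its changes were 1.85 ± 0.22 against Ctrl (limma adjusted p = 1.60e-05) and 1.90 ± 0.22 against OVA (limma adjusted p = 1.58e-05).

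CRYAB, the alpha B subunit of crystallin and a chaperone of desmin, was the most abundant small heat shock protein in EAE muscle of day 14. Its level was 1060, 660.0, 806, 725 and 609.8 RPKM in Ctrl mice, 874, 753, 682, 647 and 1030 in OVA mice, and 2788, 1823, 1084, 1623 and 2007 in EAE mice. The groups did not overlap, although EAE mouse 3 lay only just above the highest Ctrl mouse. The log2 fold change was 1.23 ± 0.22 against Ctrl (limma adjusted p = 0.00037) and 1.18 ± 0.22 against OVA (limma adjusted p = 0.000625). HSPB1, the actin-binding small heat shock protein, stood at 138, 97.7, 114, 136 and 69.0 RPKM in Ctrl, at 96.1, 64.0, 63.0, 67.9 and 121 in OVA and at 526, 375, 188, 220.2 and 259 in EAE mice. Every EAE mouse was above every other mouse of the day, with log2 fold changes of 1.44 ± 0.27 (limma adjusted p = 0.000638) and 1.88 ± 0.27 (limma adjusted p = 8.61e-05).

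HSPB6, HSPB2 and HSPB3 showed other patterns. HSPB6, a relative that is phosphorylated downstream of cyclic AMP, stood at 956, 757, 894, 598 and 692 RPKM in Ctrl, 613, 864, 909.7, 791 and 1026 in OVA, and 512, 393, 567, 664 and 459 in EAE mice. It was the only member called lower on day 14, by -0.59 ± 0.17 against Ctrl (limma adjusted p = 0.0107) and -0.70 ± 0.17 against OVA (limma adjusted p = 0.00477), and the groups overlapped in both. The call against Ctrl was lost without Ctrl mouse 1 (-0.51), Ctrl mouse 3 (-0.53), EAE mouse 2 (-0.49) or EAE mouse 5 (-0.55), and under quantile normalization (-0.30, and -0.45 against OVA). HSPB2, which binds the myotonic dystrophy kinase, was 81.4 ± 23.7, 73.8 ± 25.8 and 74.4 ± 13.6 RPKM in Ctrl, OVA and EAE mice. The 95% interval of its log2 change against Ctrl ran from -0.57 to 0.36. HSPB3 was just past the fold threshold, at 0.59 ± 0.22 against Ctrl (limma adjusted p = 0.0342) and 0.62 ± 0.22 against OVA (limma adjusted p = 0.0312), with overlapping groups. Without EAE mouse 1, in which HSPB3 reached 121.5 RPKM, the changes were 0.40 and 0.43 and the calls were lost. Leaving out Ctrl mouse 2, 3, 4 or 5, OVA mouse 2, 3 or 4, or EAE mouse 4 also ended a call, with changes of 0.49 to 0.60.

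**Figure D2:**
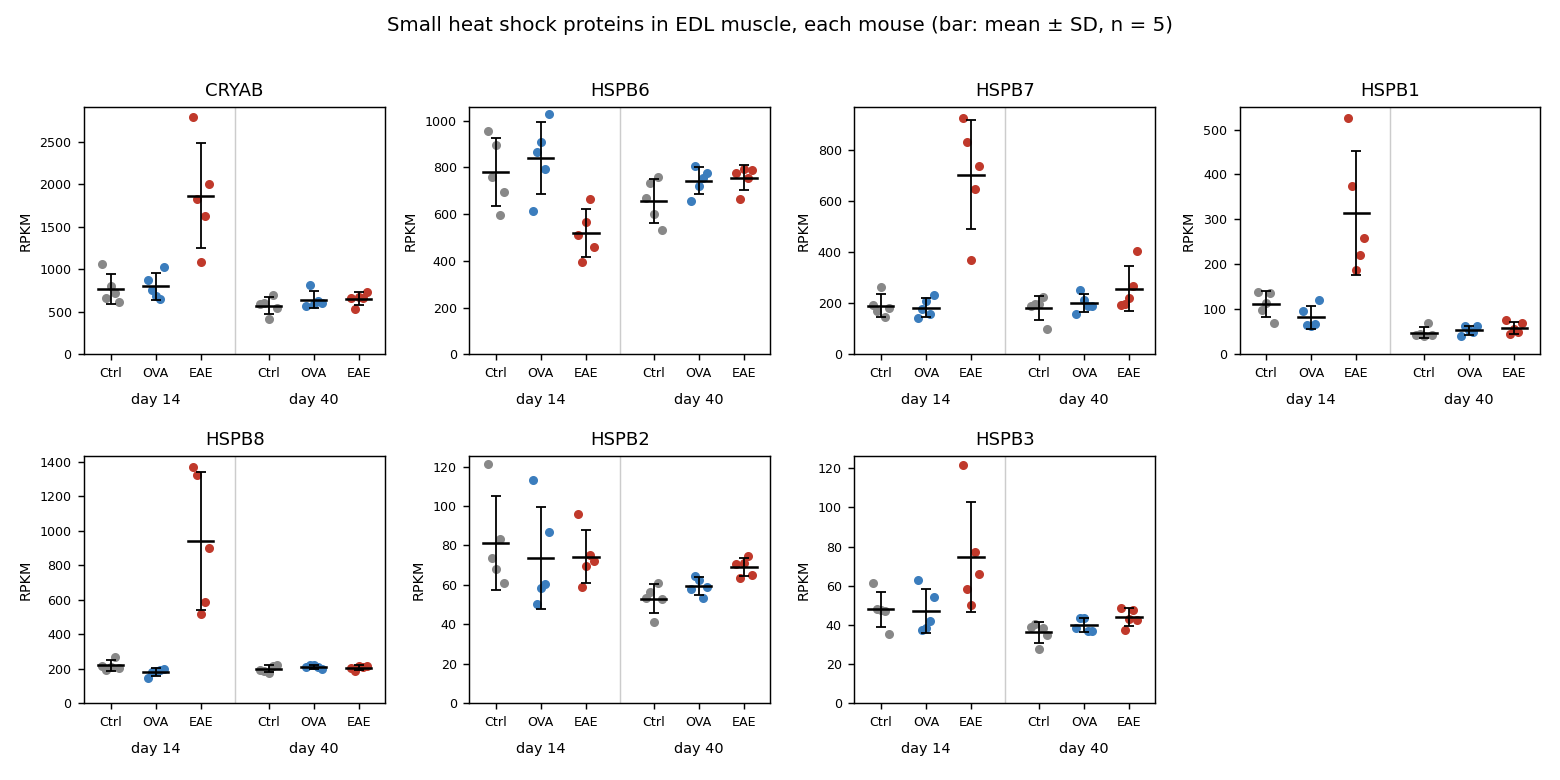
Level of each of the 7 small heat shock proteins in RPKM, with 1 point a mouse, the line at the mean and the bar at the SD of 5 mice, for the 3 groups on day 14 (left) and day 40 (right). HSPB8, HSPB7, HSPB1 and CRYAB are high in all EAE mice of day 14, HSPB6 is low, and on day 40 the EAE mice overlap with the other groups in all but HSPB2, where they lie above the Ctrl mice.

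CRYAB and HSPB2 lie next to each other on chromosome 9, on opposite strands, and their annotated exons overlap: 30.2% of the exon length of HSPB2 and 17% of that of CRYAB are shared, and whether reads were counted by strand is not given in the sources used here. The ratio of CRYAB to HSPB2 was 9.65 ± 1.31 in Ctrl, 11.4 ± 2.57 in OVA and 25.0 ± 6.34 in EAE mice, and the neighbours did not move by the same factor. The ratio of HSPB8 to HSPB6 went from 0.294 ± 0.093 in Ctrl to 1.96 ± 1.09 in EAE mice. These ratios were chosen after the values were seen and were not tested.

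Within the HSP70 family, 5 of 10 tested members were called higher against Ctrl and 2 against OVA. The stress-inducible pair HSPA1A (chr17:34969359-34972156) and HSPA1B (chr17:34956429-34959238) was low in every group. HSPA1B stood at 1.43, 2.13, 3.54, 3.72 and 3.02 RPKM in Ctrl, at 3.35, 4.79, 5.00, 3.96 and 9.39 in OVA and at 18.6, 18.2, 6.92, 5.01 and 2.88 in EAE mice. EAE mice 1 and 2 were far above all others, and EAE mouse 5 lay within the Ctrl range. The change against Ctrl was 1.59 ± 0.45 for HSPA1B (limma adjusted p = 0.00883) and 1.501 ± 0.42 for HSPA1A (limma adjusted p = 0.00802). Against OVA neither was called, with changes of 0.69 ± 0.45 (limma adjusted p = 0.232) and 0.72 ± 0.42 (limma adjusted p = 0.184). HSPA1A passed the threshold when OVA mouse 5 was left out (1.04, limma adjusted p = 0.0494). That mouse was the highest of its group for HSPA1A (8.21 RPKM). The EAE mice were uneven too, at 13.5, 14.9, 5.56, 4.17 and 2.63 RPKM. EAE mouse 5 lay below the lowest OVA mouse (2.64 RPKM), so the groups overlapped with or without OVA mouse 5. Because reads of these near-identical genes can be split between them, their sum was also taken, which was 5.11 ± 1.60 RPKM in Ctrl, 9.62 ± 4.63 in OVA and 18.5 ± 13.2 in EAE mice.

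The HSP70 genes expressed at high levels in resting muscle were not called. HSPA9, the mitochondrial HSP70 and the most abundant member of the family, was 231 ± 14.7 RPKM in Ctrl and 246 ± 28.0 in EAE mice (log2 change 0.09, limma adjusted p = 0.52). HSPA8, the constitutive cytosolic HSP70, had a change of 0.31 ± 0.12 (limma adjusted p = 0.037), under the fold threshold, and HSPA5, the HSP70 of the ER, one of 0.35 ± 0.16 (limma adjusted p = 0.0813). HSPA1L was called higher in both comparisons (1.07 ± 0.14 and 1.06 ± 0.14, limma adjusted p = 3.92e-05 and 4.86e-05), but 71.9% of its annotated exon length lies opposite another gene model. HSPA2, known best from testis, was called higher in both (0.98 and 0.95, having passed the filter through the EAE group), from 2.66 ± 0.36 RPKM in Ctrl mice to 5.35 ± 0.85 in EAE mice, and HSPA13, an HSP70 of microsomes, was called higher against Ctrl (0.72 ± 0.13, limma adjusted p = 0.000504). HSPA12B, an HSP70 relative known from endothelium, had changes of -0.53 ± 0.18 against Ctrl and -0.48 ± 0.18 against OVA, under the fold threshold (limma adjusted p = 0.0238 and 0.0471). Of 8 endothelial markers 3 were called lower in each comparison, where 11.8% and 9.28% of all genes were called lower. Their summed level was 83.7 to 124 RPKM in EAE and 109 to 146 in Ctrl mice. Their part in the value of HSPA12B was not tested.

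Of the 3 nucleotide exchange factors of the HSP110 family, HSPH1 and HSPA4 rose against Ctrl, and HSPA4L had a change of 0.41 ± 0.17 (limma adjusted p = 0.0608). HSPH1 (chr5:149616843-149636498) stood at 19.7, 22.6, 24.5, 29.2 and 21.7 RPKM in Ctrl, at 19.3, 26.5, 24.4, 23.2 and 23.2 in OVA and at 48.3, 59.9, 42.4, 43.2 and 55.0 in EAE mice. Every EAE mouse was above every mouse of the other groups, and the change was 1.08 ± 0.13 against Ctrl (limma adjusted p = 1.28e-05) and 1.09 ± 0.13 against OVA (limma adjusted p = 1.47e-05). HSPA4 rose from 35.7 ± 2.77 to 55.0 ± 6.52 RPKM (0.62 ± 0.10, limma adjusted p = 0.000168), a change that fell under 1.5 fold without Ctrl mouse 1 (0.57), EAE mouse 1 (0.58) or EAE mouse 2 (0.58) and was under it against OVA (0.51 ± 0.10, limma adjusted p = 0.000952).

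HSP90AB1, the constitutive cytosolic HSP90, was the most abundant of all members in Ctrl mice of day 14. Its level was 1037, 753, 791, 857 and 736 RPKM in Ctrl, 798, 611, 637, 676 and 803 in OVA, and 1437, 1563, 1272, 1160 and 1561 in EAE mice. The groups did not overlap, with changes of 0.75 ± 0.13 (limma adjusted p = 0.000345) and 0.99 ± 0.13 (limma adjusted p = 3.80e-05). The inducible HSP90AA1 was low, at 11.9 ± 1.36 RPKM in Ctrl and 18.8 ± 5.34 in EAE mice, and was called higher against Ctrl (0.61 ± 0.18, limma adjusted p = 0.0097) but not against OVA (0.43 ± 0.18, limma adjusted p = 0.0652). Its call was lost without Ctrl mouse 4 (0.57), EAE mouse 1 (0.48) or EAE mouse 2 (0.54). HSP90B1, the HSP90 of the ER, was 121 ± 9.79 RPKM in Ctrl and 119 ± 18.5 in EAE mice, with a 95% interval of the log2 change from -0.28 to 0.21.

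For the CCT chaperonin all 7 subunits had an estimate above 0 in both comparisons, from 0.38 (CCT8) to 1.07 (CCT2) against Ctrl, and CCT2, CCT6A, CCT7 and CCT4 were called higher in both. The call of CCT4 was lost without EAE mouse 1 (0.56 against Ctrl and 0.52 against OVA), against OVA also without OVA mouse 2, 3 or 4 or EAE mouse 5 (0.54 to 0.57), and in both comparisons under the other scalings (0.49 to 0.55). That of CCT7 against Ctrl was lost with quantile normalization (0.58). CCT2 (chr10:117050997-117063852) stood at 24.3, 46.0, 45.9, 48.8 and 45.3 RPKM in Ctrl, at 47.0, 46.7, 47.0, 44.6 and 48.6 in OVA and at 98.2, 95.6, 69.1, 77.4 and 92.9 in EAE mice. Ctrl mouse 1 was apart from its group, and the change was 1.07 ± 0.16 against Ctrl (limma adjusted p = 0.000109) and 0.87 ± 0.16 against OVA, whose mice lay between 44.6 and 48.6 RPKM (limma adjusted p = 0.000688). CCT6A rose by 1.02 ± 0.14 and 0.79 ± 0.14 (limma adjusted p = 4.78e-05 and 0.000481). CCT5, the most abundant subunit, went from 96.0 ± 6.89 to 139 ± 33.0 RPKM (0.51 ± 0.14, limma adjusted p = 0.00812), under the fold threshold. TCP1, the remaining subunit of the complex, whose symbol the name rule does not match, was called higher by 0.68 ± 0.10 and 0.63 ± 0.10 (limma adjusted p = 8.12e-05 and 0.000169). Of the mitochondrial chaperonin, HSPD1 was 89.9 ± 8.11, 95.3 ± 7.47 and 95.9 ± 10.5 RPKM in Ctrl, OVA and EAE mice, and the interval of its log2 change against Ctrl ran from -0.12 to 0.31. The change of HSPE1 was 0.21 ± 0.24 against Ctrl and 0.42 ± 0.24 against OVA (limma adjusted p = 0.479 and 0.182).

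**Figure D3:**
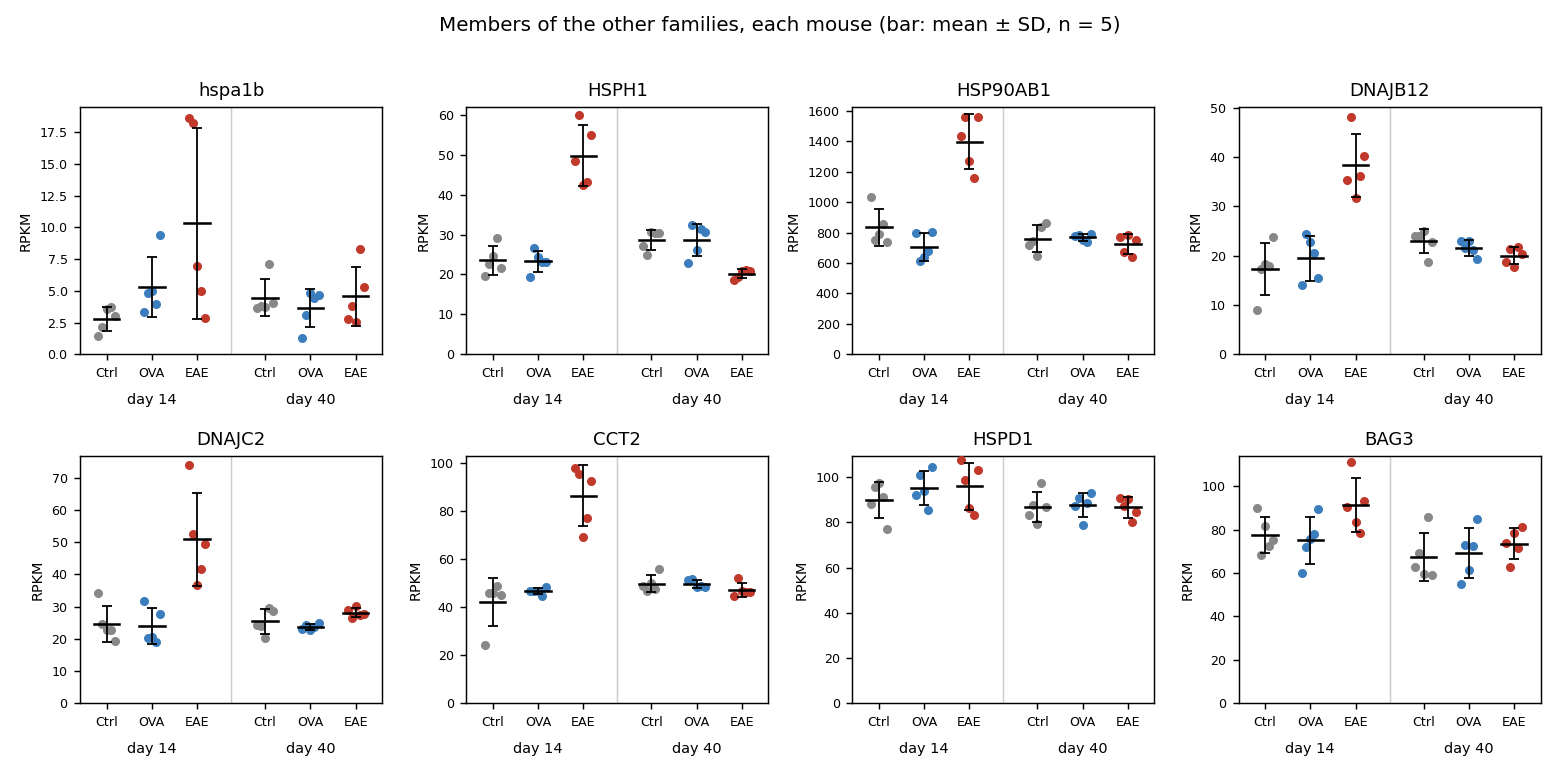
Level in RPKM of 8 members of the other families in each mouse, with the mean and SD of 5 mice, on day 14 and day 40. HSPH1, HSP90AB1, DNAJB12, DNAJC2 and CCT2 separate the EAE mice of day 14 from all others, HSPA1B (hspa1b in the table) is far above the rest in 2 EAE mice, HSPD1 and BAG3 overlap between groups, and on day 40 HSPH1 is low in EAE mice.

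J-domain proteins were the largest family, and 10 of 38 were called higher against Ctrl (26.3%) and 4 against OVA (10.5%), the latter near the share of all genes. DNAJB12, an ER membrane protein of the degradation pathway for misfolded proteins, stood at 9.01, 17.4, 18.3, 17.9 and 23.9 RPKM in Ctrl, at 14.0, 24.5, 22.7, 20.6 and 15.6 in OVA and at 35.4, 48.2, 31.7, 36.1 and 40.3 in EAE mice. The EAE mice lay above all others, with changes of 1.196 ± 0.22 (limma adjusted p = 0.000479) and 0.99 ± 0.22 (limma adjusted p = 0.00233). DNAJC2, the J-domain protein of the ribosome, was 34.1, 24.5, 22.7, 22.7 and 19.5 RPKM in Ctrl, 31.8, 20.4, 20.6, 19.0 and 27.8 in OVA, and 73.9, 52.6, 36.7, 41.6 and 49.4 in EAE mice, again without overlap. Its changes were 1.02 ± 0.20 (limma adjusted p = 0.000662) and 1.07 ± 0.20 (limma adjusted p = 0.000564). DNAJB14, a relative of DNAJB12 in the same membrane, and DNAJC5, the cysteine string protein of secretory vesicles, were the other members called higher in both comparisons, by 0.96 and 0.81 and by 0.80 and 0.62. DNAJB14 passed the filter only through the EAE group and was not tested without EAE mouse 2, with a filter that ignores the groups or with median-of-ratios scaling. The call of DNAJC5 against OVA was lost without OVA mouse 1 (0.46), OVA mouse 5 (0.56) or EAE mouse 2 (0.52) and under both other scalings (0.53 and 0.49). DNAJC16, DNAJC21, DNAJB1, DNAJB9, DNAJB4 and DNAJA2 were called higher against Ctrl and not against OVA, by 0.60 to 0.94. Each of these calls was lost when 1 mouse was left out: DNAJC16 without Ctrl mouse 1 (0.66) or EAE mouse 2 (0.81), DNAJC21 without EAE mouse 1 (0.57), DNAJB4 (0.46 and 0.52) and DNAJA2 (0.52 and 0.57) without Ctrl mouse 1 or EAE mouse 1, and DNAJB9 without Ctrl mouse 1 (0.49), EAE mouse 1 (0.53) or EAE mouse 2 (0.58). Apart from DNAJC16 they were also lost with median-of-ratios scaling and quantile normalization.

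DNAJB1, the heat-inducible cytosolic partner of HSP70, was 5.78 ± 1.53 RPKM in Ctrl, 8.52 ± 1.38 in OVA and 9.13 ± 2.745 in EAE mice. Its call (0.64 ± 0.22, limma adjusted p = 0.0239) was lost without Ctrl mouse 1 or 2 or EAE mouse 1 or 2, with changes of 0.50 to 0.59, and against OVA it was 0.06 ± 0.22. DNAJB5, the most abundant J-domain member, was 112 ± 3.69 RPKM in Ctrl and 99.7 ± 8.33 in EAE mice (-0.17 ± 0.09, limma adjusted p = 0.111). Against Ctrl 8 of the 38 members of the family had an estimate below 0, down to -0.44, and none of them was called. DNAJC11, at -0.31, was lower in every EAE mouse than in any Ctrl mouse (16.2 to 17.5 against 20.3 to 23.2 RPKM, limma adjusted p = 0.00626). The entry Dnajc19-ps is a pseudogene of DNAJC19, and reads of the parent gene and its copy may be divided between them.

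Among BAG cochaperones only BAG6, which guards newly made membrane proteins, was called, with 47.9 to 57.2 RPKM in Ctrl mice, 44.3 to 53.1 in OVA mice and 78.8 to 96.1 in EAE mice. Its changes were 0.72 ± 0.09 against Ctrl (limma adjusted p = 2.10e-05) and 0.76 ± 0.09 against OVA (limma adjusted p = 1.49e-05). BAG3, the partner of HSPB8, was 77.6 ± 8.43, 75.1 ± 10.8 and 91.4 ± 12.4 RPKM in Ctrl, OVA and EAE mice, and its change was 0.23 ± 0.12 against Ctrl (limma adjusted p = 0.126). The ratio of HSPB8 to BAG3 was 2.86 ± 0.51 in Ctrl, 2.43 ± 0.12 in OVA and 10.1 ± 3.58 in EAE mice. BAG1, the most abundant of the family, had a change of -0.23 ± 0.11 (limma adjusted p = 0.101). HSPBP1, an exchange factor of HSP70, was 21.5 ± 3.52 in Ctrl and 20.1 ± 4.54 RPKM in EAE mice.

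Genes that work with the members, taken from lists kept beside the name rule, are given here as counts, beside the 14.6% and 11.0% of all genes called higher against Ctrl and OVA. Of the heat shock factors, HSF2 was called higher by 1.04 ± 0.12 against Ctrl and 0.95 ± 0.12 against OVA (limma adjusted p = 1.06e-05 and 2.62e-05), and HSF1 by 0.63 ± 0.09 against OVA (limma adjusted p = 5.49e-05), with 0.52 ± 0.09 against Ctrl. Of 14 cochaperones of HSP90 and HSP70, 3 were called higher against Ctrl and 2 against OVA. The largest estimate was that of FKBP5, an immunophilin of steroid receptor complexes (2.40 ± 0.40 and 1.79 ± 0.40, limma adjusted p = 0.000233 and 0.00263), followed by PTGES3, the HSP90 cochaperone p23. FKBP5 and WDFY3, an autophagy adaptor, passed the filter on low values against Ctrl, and PTGES3 in both comparisons, only through the EAE group, which favours a difference. Of 5 partners in chaperone-assisted autophagy, FLNC, the filamin of muscle, rose by 1.36 ± 0.24 and 1.32 ± 0.24 (limma adjusted p = 0.000346 and 0.000516), SQSTM1 was also called in both, and WDFY3 against Ctrl. Of 13 further ER chaperones 2 were called higher against Ctrl (CANX and P4HB) and 1 against OVA, of 9 prefoldin and TCP1 genes 1, and of 9 mitochondrial chaperones and proteases and 3 myosin chaperones 0 in either comparison. In limma, 4 of the mitochondrial genes and 1 of the myosin chaperones had an unadjusted p under 0.05 in each comparison, where 55.4% and 47.9% of all genes did. TRAP1, the HSP90 of mitochondria, and TIMM44, a subunit of the import motor, had limma adjusted p values of 0.00193 and 0.00435 against Ctrl with changes under 1.5 fold, of 0.32 and -0.39. In none of these lists was a gene called on day 40 in limma, where at most 3 genes of a list had an unadjusted p under 0.05 for EAE against either group.

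Other transcripts moved in the same muscles. Of 16 immediate early genes tested, 9 were called higher against Ctrl and 7 against OVA, and their summed level was 528 to 1009 RPKM in EAE mice and 254 to 469 in Ctrl mice. Among all genes, 11.8% were called lower against Ctrl and 9.28% against OVA. Fibroblast markers were lower in EAE (6 of 7 called against Ctrl and 5 against OVA). Their summed level was 316 to 502 RPKM against 870 to 1425 in Ctrl mice. Macrophage markers (3 of 8 called lower), erythrocyte markers (5 of 5 lower) and slow-fibre markers (4 of 8 lower) moved the same way against Ctrl. Against OVA these counts were 5, 5 and 4. Neutrophil markers passed the filter against Ctrl only through the group where they are high. Their summed level was 217.5 to 403 RPKM in EAE mice, 3.79 to 10.7 in Ctrl mice and 68.6 to 236 in OVA mice. The sum did not speak for each neutrophil marker. Against OVA, 1 of the 5 tested was called higher, and their median log2 fold change was -0.86. Lymphocyte markers summed to at most 3.08 RPKM in any mouse of day 14. Fast-fibre markers, the defining genes of EDL, summed to 55186 to 73158 RPKM in EAE and 77751 to 119553 in Ctrl mice, with 2 of 10 called lower. The part of these shifts in the chaperone values was not tested.

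OVA immunization alone changed no member past the threshold on day 14 in limma, where 0.0944% of 8471 genes were called higher and 0.0472% lower. Of 75 members tested, 2 had an unadjusted p under 0.05 (2.67%, and 9.69% of all genes), and the changes of OVA against Ctrl ran from -0.44 (HSPB1) to 0.90 (HSPA1B, limma adjusted p = 0.553), and the OVA group of HSPA1B held a mouse at 9.39 RPKM. The interval of the OVA change of HSPB8 was -0.76 to 0.22 and that of CRYAB -0.41 to 0.51, so changes of the size seen in EAE lie outside them.

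On day 40, no member was called in any comparison by limma with the fold threshold. Of 75 members tested in each, 23 had an unadjusted p under 0.05 for EAE against Ctrl (30.7%, and 27.9% of all genes), 13 for EAE against OVA (17.3%, and 17.4% of all genes) and 1 for OVA against Ctrl (1.33%, and 3.12% of all genes), so the members stood near the background. All-gene calls past both thresholds were few too, with 0.0690% of genes higher and 0.391% lower for EAE against Ctrl, 0.0349% and 0.174% for EAE against OVA, and 0% for OVA against Ctrl. Groups did not overlap for 1 member above and 3 below against Ctrl (0.713% and 4.51% of all genes) and for 3 above and 2 below against OVA (0.977% and 4.90%). HSPB8 was 200 ± 20.6 RPKM in Ctrl, 212 ± 10.6 in OVA and 208 ± 13.2 in EAE mice, and the interval of its log2 change against Ctrl was -0.09 to 0.21. CRYAB was 569.6 ± 101.5, 642 ± 100.4 and 655 ± 72.5 RPKM, HSPB6 657 ± 93.4, 743 ± 56.5 and 755 ± 52.7 RPKM, and HSP90AB1 761 ± 89.4, 768 ± 23.8 and 724 ± 65.4 RPKM in the same order.

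All 7 small heat shock proteins had an estimate above 0 against Ctrl on day 40, from 0.06 to 0.49 with a median of 0.29, while the median of all genes was -0.05. Against OVA 6 of 7 were above 0, with a median of 0.13, and for OVA against Ctrl all 7 were above 0 as well, from 0.09 to 0.19 with a median of 0.17. A few members differed on day 40 by less than 1.5 fold with an adjusted p under 0.05. At this limit on p alone, 0.2877% of all genes were higher and 2.347% lower in EAE than in Ctrl mice. Against OVA these shares were 0.05815% and 0.5815%. HSPH1, which was at 2.11 times the Ctrl level on day 14, stood at 27.2, 25.0, 30.6, 30.3 and 30.3 RPKM in Ctrl, at 22.9, 32.3, 26.1, 31.5 and 30.7 in OVA and at 18.6, 19.5, 20.8, 21.1 and 21.0 in EAE mice. It was below every mouse of both other groups, by -0.50 ± 0.09 against Ctrl (limma adjusted p = 0.0196) and -0.49 ± 0.09 against OVA (limma adjusted p = 0.0369). HSPB2 was higher in every EAE mouse than in any Ctrl mouse (63.7 to 74.5 against 41.1 to 61.2 RPKM; 0.39 ± 0.09, limma adjusted p = 0.0404), with 0.22 ± 0.09 against OVA (limma adjusted p = 0.233). HSPA12B was lower than in OVA mice (-0.53 ± 0.11, limma adjusted p = 0.0464), with -0.30 ± 0.11 against Ctrl. HSPB7 reached 405 RPKM in EAE mouse 5, while the other EAE mice were between 193 and 266 RPKM, and its change of 0.49 ± 0.22 did not pass (limma adjusted p = 0.154).

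The difference of the EAE effect on day 40 from that on day 14 was tested with an interaction term over the 30 mice. Against Ctrl, 30 of 77 members had a more negative EAE effect on day 40 and 2 a more positive one (39.0% and 2.60%), where 20.9% and 11.7% of 9013 genes did. Against OVA, 19 were more negative and 2 more positive (24.7% and 2.60%), where 13.7% and 8.16% of 8935 genes did. The balance of all genes turned with median-of-ratios scaling, to 14.0% more negative and 16.5% more positive against Ctrl (21 and 5 members) and 8.67% and 11.3% against OVA (13 and 3 members). Since the interaction contains the day 14 difference, it is not separate evidence for it. The largest values against Ctrl were those of HSPB8 (-1.93 ± 0.25, limma adjusted p = 1.31e-06), HSPA1B (-1.65 ± 0.60, limma adjusted p = 0.0254) and HSPH1 (-1.58 ± 0.16, limma adjusted p = 3.54e-08). HSPB6 (0.80 ± 0.20, limma adjusted p = 0.00187) and the pseudogene Dnajc19-ps (0.70 ± 0.22, limma adjusted p = 0.0107) had the positive ones. Control mice of the days were also not at the same level for every member: HSPB1 was 111 ± 28.7 RPKM in Ctrl mice of day 14 and 48.0 ± 12.0 in those of day 40, a difference in which age, time and handling of different mice cannot be told apart.

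**Figure D4:**
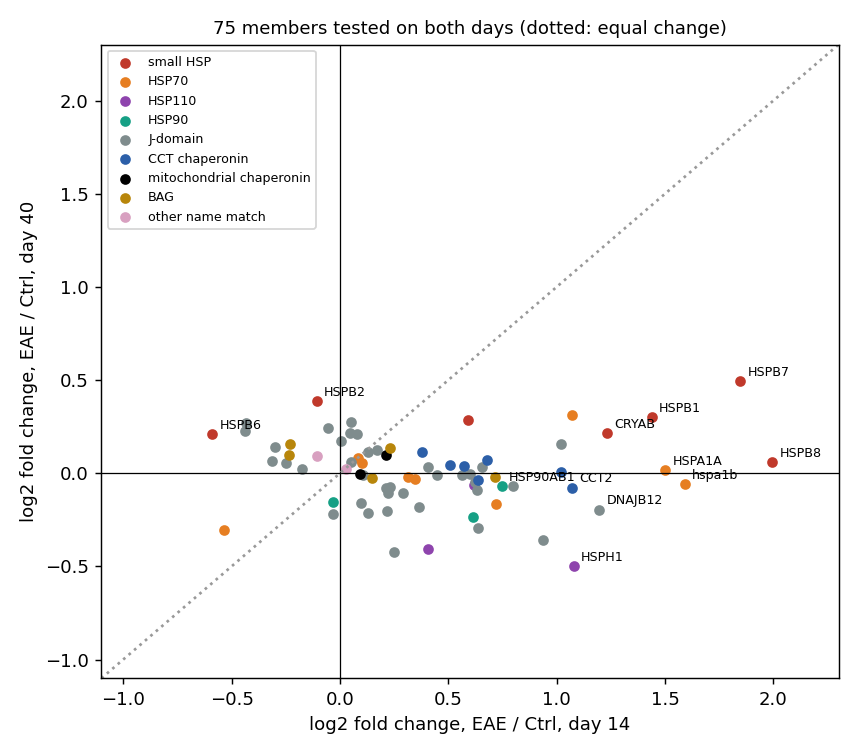
For the 75 members tested on both days, the log2 fold change of EAE against Ctrl on day 14 (x axis) is plotted against that on day 40 (y axis), coloured by family, with a dotted line of equal change. The members with large changes on day 14 lie closer to 0 on day 40, when all members lie between -0.50 and 0.49. HSPH1 lies below 0 at -0.50, and HSPB7 and HSPB2 lie above it at 0.49 and 0.39.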

How the data were processed

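RNA of EDL muscle was sequenced in 30 mice, 5 in each of 6 groups named by the labels. The authors made poly(A) libraries with a directional kit, mapped reads to mm10 (Subread), counted them per gene (featureCounts) and computed RPKM. The deposited values are log2(RPKM + 1), read as such from the values, with 0.0001 where a gene had no read (25.8% of values), and were converted back to RPKM. Tests used limma 3.58.1 in R 4.3.3 on log2(RPKM + 0.1) with a mean-variance trend, fitting the 3 groups of a day together, for genes above 3 RPKM in a compared group, with Benjamini-Hochberg adjustment over all genes tested. Fold changes are on this scale, which understates those of low genes. The fit was tested on simulated data. Depth was estimated from the size of single-read steps. No libraries were copies of each other. The p-values measure the spread between mice. Age and the strand setting of the counting are not given in the sources used here.

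Members and lists were chosen with earlier results of these data known. Described in full were members called for EAE on day 14 with the largest changes (up to 12 in each direction) and the most abundant of each family. Others are given by counts and ranges, and those whose values are given beyond this rule were chosen after the values were seen. Symbols are printed in capitals. Alternatives varied the pseudocount, filter, scaling, model, fold threshold and mice.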

Additional observations from a re-analysis of the deposited data

Results flagged for a closer look

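In 12 of 126 sets of 5 mice (21 named members in 6 groups), 1 mouse stood apart from its group by Dixon's criterion. About 1 in 20 independent sets of normally distributed values would do so. RPKM values of members that vary together are not such sets, so the count cannot be read against that rate. Among Ctrl mice of day 40, mouse 4 was high for HSPB1 (69.35 RPKM, others 40.7 to 44.9), HSPA1B (7.126, others 3.67 to 4.03) and HSPA1A (5.933, others 2.902 to 3.69), and mouse 5 was low for HSPB7 (99.68, others 188 to 222.5). OVA mouse 5 of day 14 was high for HSPA1B (9.394, others 3.35 to 5.00) and HSPA1A (8.212, others 2.64 to 4.12), the pair whose EAE against OVA difference did not pass. Ctrl mouse 1 of day 14 was low for CCT2 (24.34, others 45.3 to 48.8), and EAE mouse 1 of that day was high for BAG1 (178.7, others 129.9 to 144). On day 40, CRYAB was high in OVA mouse 2 (817.3, others 567 to 627), BAG1 in OVA mouse 1 (169.6, others 154 to 158) and CCT2 in EAE mouse 2 (52.12, others 44.6 to 46.7), and HSPB6 was low in EAE mouse 2 (664.2, others 756 to 792).

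The EAE effect differed between the days, by limma's interaction term over 30 mice, for 15 of the 21 named members against Ctrl. Among all genes, 20.9% had a more negative EAE effect on day 40 and 11.7% a more positive one (13.7% and 8.16% against OVA). Many named members were chosen for a large EAE change on day 14. That choice favours such a difference, so these values are not separate evidence. The difference of log2 changes (day 40 minus day 14) was -1.933 for HSPB8, -1.352 for HSPB7, -1.139 for HSPB1, -1.02 for CRYAB, and 0.799 for HSPB6. It was -1.65 for HSPA1B, -1.483 for HSPA1A, -0.7587 for HSPA1L, -1.578 for HSPH1, -0.6805 for HSPA4 and -0.8158 for HSP90AB1. It was -1.391 for DNAJB12, -0.8665 for DNAJC2, -1.148 for CCT2 and -1.013 for CCT6A. Against OVA, with the same EAE mice, it was -2.295 for HSPB8, -1.578 for HSPB7, -1.747 for HSPB1, -1.146 for CRYAB and 0.7224 for HSPB6. It was also -0.9572 for HSPA1L, -1.58 for HSPH1, -1.078 for HSP90AB1, -1.103 for DNAJB12, -0.8339 for DNAJC2, -0.9531 for CCT2 and -0.8399 for CCT6A.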

How the results depend on the processing

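Alternatives were another pseudocount (1 or 0.01), no filter or a filter on the mean over all mice compared, median-of-ratios scaling, quantile normalization, no fold threshold, the 10 mice compared or all 30 mice in 1 model, a replicate block, and leaving out each mouse. Of 30 members called for EAE against Ctrl on day 14, 17 kept their call in all of them, among them HSPB8, HSPB7, HSPB1, CRYAB, HSPA1A, HSPA1B, HSPH1, HSP90AB1, DNAJB12, DNAJC2, CCT2, CCT6A and BAG6. Of 19 called against OVA, 14 kept it. Median-of-ratios scaling left 19 members higher and 2 lower against Ctrl and 2 lower against OVA, and quantile normalization left 19 higher against Ctrl. The positive day by group changes against Ctrl were 5 with median-of-ratios scaling and 4 without the fold threshold (16.5% of all genes in each). Without the fold threshold, 3 members were lower against Ctrl on day 14, where 18.98% of all genes were. Against OVA, 30 were higher and 6 lower, where 23.8% and 15.29% of all genes were. On day 40, 1 was higher and 1 lower against Ctrl (0.2877% and 2.347% of all genes), and 2 were lower against OVA (0.5815%). Negative day by group changes against OVA were 29 (24.01% of all genes). Leaving out single mice on day 14 gave 20 to 32 members higher and 0 to 2 lower against Ctrl. The 0 came without Ctrl mouse 3, EAE mouse 2 or EAE mouse 5. Of all genes, 11.35% to 16.38% were then higher and 9.937% to 12.84% lower. Against OVA, 16 to 21 members were higher and 1 to 2 lower, beside 9.25% to 12.37% and 7.361% to 10.33% of all genes. On day 40, leaving out single mice gave 0 to 1 lower against OVA, the 1 coming without OVA mouse 1 (0.2439% of all genes). Negative day by group changes ranged from 24 to 31 (Ctrl) and 16 to 24 (OVA), and positive ones from 1 to 4 (Ctrl) and 2 to 3 (OVA). The all-gene shares ranged from 16.77% to 23.19% and 11.59% to 15.6% for negative changes. For positive ones they ranged from 9.929% to 13.06% and 6.305% to 9.276%. The mean of the deposited values as the limit also gave 79 members. Dropping the fold threshold can only add calls, and the cause of the other shifts was not tested.

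The replicate block took the mouse numbers as pairs. Deviations of same-numbered mice correlated from -0.73 to 0.70, above 0.1 in 8 of 30 pairs, so the criterion for a pairing (every pair above 0.1) was not met. Mice numbered 1 on day 14 did deviate together, at 0.61 (Ctrl and OVA), 0.51 (Ctrl and EAE) and 0.70 (OVA and EAE), and Ctrl mouse 1 and EAE mouse 1 are among the mice whose removal lowered the member count most. With the replicate block 29 members were higher and 1 lower against Ctrl (15.22% and 11.95% of all genes). Against OVA, 19 were higher and 1 lower (11.56% and 9.407%), and no call of a member was lost. The lowest single value of any member rested on an estimated 78.6 reads (HSPA1B).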
